A study of Mus musculus with 9 samples.

Results

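The expression of 10 vasomotor genes was examined in primary mouse lung endothelial cells (MLEC) from mice with LoxP alleles of the genes for the stress kinases JNK1 and JNK2 and an endothelial Cre, and from control mice. The genes are *Edn1*, *Ednrb* and *Ece1* of the endothelin system, *Ptgs1*, *Ptgs2* and *Ptgis* of prostanoid synthesis, *Nos3*, *Gch1* and *Ddah2* of the nitric oxide system, and *Ace*. They were chosen by symbol for what their proteins do, with earlier results of these data known. Each symbol named a single locus among the 37104 loci of the deposited tables. RNA-seq had been performed on 9 libraries, 3 in each of 3 groups of C57BL/6J mice that were 10 to 12 weeks of age. E3KO cells were *Cdh5-Cre+ Jnk1LoxP/LoxP Jnk2LoxP/LoxP Jnk3-/-*. ECtrl cells were *Cdh5-Cre+* with wild-type *Jnk1* and *Jnk2*, EfCtrl cells were *Cdh5-Cre-* with the LoxP alleles of both genes, and all 3 groups were *Jnk3-/-*, so no group has all JNK genes intact. *Cdh5-Cre* is driven by the promoter of VE-cadherin and is active in endothelial cells and in cells derived from them. Each library came from a separate isolation of pooled lungs, in which cells were selected with ICAM2 and grown in culture.

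Endothelial cells set the tone of the underlying smooth muscle by releasing mediators that contract or relax it. Endothelin-1 is made as a precursor, is cut to its active form by endothelin-converting enzyme, constricts vessels through receptors on smooth muscle, and acts on the endothelial receptor EDNRB, which clears the peptide and promotes release of nitric oxide. Nitric oxide synthase uses arginine and tetrahydrobiopterin to make the relaxant nitric oxide, and the cyclooxygenases start the synthesis of prostacyclin and other prostanoids.

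Levels are given as FPKM, a count of fragments scaled to the length of the transcript and to the size of the library, which the authors computed for each library and which can be set side by side between genes because it is per length. The number of fragments behind a value, and the depth of each library, cannot be read from FPKM. Differences were tested with limma on log2(FPKM + 1) and p-values were adjusted by Benjamini-Hochberg over the 10605 genes whose mean reached 2 FPKM in any group. A gene was called at an adjusted p under 0.05. Because of the added 1, the log2 fold changes of weakly expressed genes are smaller than the changes in their FPKM. Each member was also compared alone between the 3 E3KO and the 6 control libraries by an exact two-sided permutation test, which is not adjusted for the 10 members and cannot go below 0.0119. A test of 3 against 3 libraries could not go below 0.1 and was not used.

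The targeted genes were examined first. *Mapk8*, which encodes JNK1, was at 14.0 to 17.9 FPKM in the 6 control libraries and at 20.7, 8.77 and 4.65 FPKM in the E3KO libraries. For this gene the library labelled E3KO replicate 1 was above every control. FPKM is a value for the whole gene and not for the deleted part, so neither the deletion nor the label could be checked from it. *Mapk9*, which encodes JNK2, was at 42.7 to 50.9 FPKM in the controls and lower in all 3 E3KO libraries, at 27.6, 35.1 and 20.7 FPKM. *Mapk10*, which encodes JNK3, was at or under 0.270 FPKM in every library. The library labelled E3KO replicate 1 also stood apart in its FPKM sum (96.4% in 10 symbols, against 40.9% to 56.8% in the others) and in its summed epithelial markers (51.5 FPKM, against 3.15 to 6.16 in the controls). Most of that epithelial sum was *Scgb1a1* (46.2 FPKM, against at most 1.87 FPKM in the controls). *Epcam* (1.79 FPKM) and *Sftpc* (1.35 FPKM) were also above the controls in this library, and the other epithelial markers were not. Of 12 endothelial markers, 11 were at 39.9 FPKM or more in all 9 libraries, among them *Pecam1* (643 to 798 FPKM) and *Cdh5* (613 to 943 FPKM), while *Vwf* was at or under 2.15 FPKM. Their sum was 3345 to 4026 FPKM in control libraries and 3843 to 4346 FPKM in E3KO. Against the mean of the controls 1 of them was called higher (*Emcn*, 822 to 1095 FPKM in controls and 1452 to 1557 FPKM in E3KO) and 1 lower (*Cldn5*, 167 to 276 and 97.5 to 129 FPKM). The sum over 7 lymphatic endothelial markers ranged from 2467 to 3341 FPKM in control libraries and from 2275 to 2566 in E3KO, with *Lyve1* alone at 1513 to 2050 FPKM and *Ccl21a* at or under 9.83 FPKM. All 7 had a negative log2 fold change, and *Prox1*, *Reln* and *Ccl21a* were called lower. In bulk RNA, fewer cells of a type and less RNA per cell cannot be told apart, and the part of the marker differences in the results below was not tested.

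The members spanned a wide range of levels in control MLEC. *Ece1* (193 ± 30.4 FPKM, SD, n = 6 control libraries), *Edn1* (89.7 ± 17.7) and *Ednrb* (68.7 ± 12.4) were the most abundant. The other members averaged between 1.12 FPKM (*Ptgis*) and 4.22 FPKM (*Ddah2*), and *Nos3* was at 2.96 ± 0.869 FPKM. In the order by mean, *Ece1* was above *Edn1*, *Ednrb* above *Ddah2* and *Ptgs1* above *Ptgis* in 6 of 6 control libraries. The other neighbours in the order (*Edn1* and *Ednrb*, and then *Ddah2*, *Ace*, *Nos3*, *Ptgs2*, *Gch1* and *Ptgs1*) changed places in at least 1 of the 6 and did not differ beyond their spread. All members other than *Ptgis* reached the minimum of 2 FPKM. *Gch1* reached it through the E3KO group alone and *Ptgs1* through the E3KO and EfCtrl groups.

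**Figure D1:**
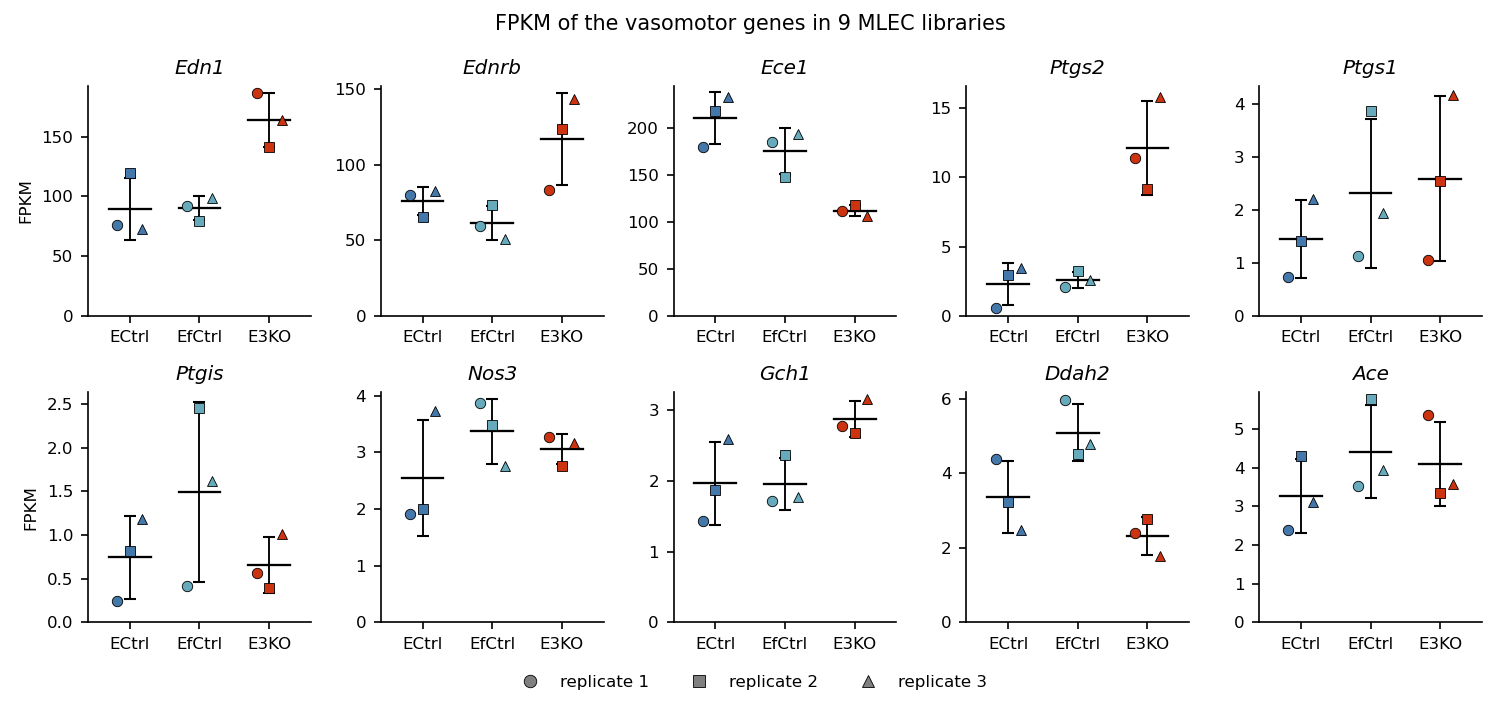
FPKM (linear axes from 0, a separate scale for each gene) of the 10 vasomotor genes in the ECtrl, EfCtrl and E3KO libraries. Each point is a library, with the replicate number given by its shape, and horizontal and vertical lines are the group mean and SD (n = 3). *Edn1*, *Ednrb*, *Ptgs2* and *Gch1* are higher in every E3KO library than in any control, and *Ece1* is lower in every E3KO library.

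Compared with the mean of the controls, *Ptgs2* and *Edn1* were called higher and *Ece1* was called lower in E3KO cells, which is 3 of the 9 members tested beside 4.8% of all genes tested. Compared with ECtrl, *Ptgs2* and *Ece1* were called, beside 2.25% of all genes tested. Compared with EfCtrl, limma called 0 of the 9 members tested, beside 0.952% of all genes, while 6 of the 9 had an unadjusted p under 0.05, beside 17.7% of all genes. The control groups differed from each other for 0 members and for 0 of all genes at the adjusted threshold in limma, and for 1 member (*Ddah2*) and 195 genes (1.84%) at an unadjusted p under 0.05. In 4 members all E3KO libraries were above all control libraries (5.18% of all genes tested), and in 1 member they were all below (11.5%). Among the 4 is *Gch1*, which reached the minimum through the E3KO group alone.

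**Figure D2:**
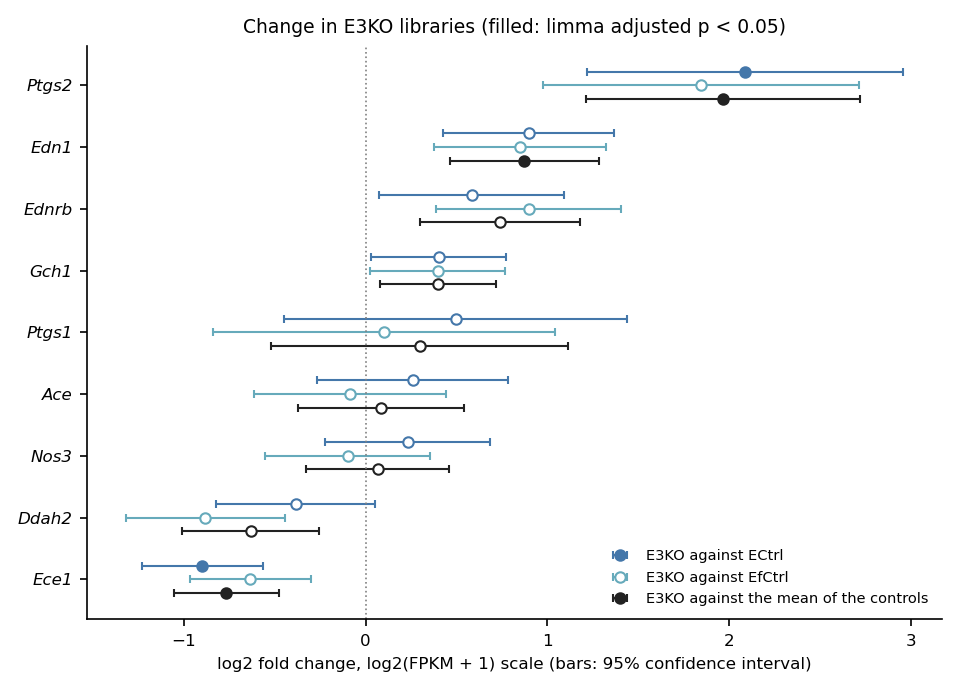
Log2 fold change, on the log2(FPKM + 1) scale, of the 9 members tested, for E3KO against ECtrl, EfCtrl and the mean of both, with 95% confidence intervals from limma. Filled points have an adjusted p under 0.05, and these are *Ptgs2* and *Ece1* against ECtrl and *Ptgs2*, *Edn1* and *Ece1* against the mean of the controls.

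Within the endothelin system the ligand was higher and its processing enzyme lower. *Edn1*, which encodes the endothelin-1 precursor (chromosome 13, 42301270 to 42307989, mm10), was at 75.7, 119 and 72.6 FPKM in ECtrl, at 92.2, 79.4 and 98.9 FPKM in EfCtrl and at 186, 141 and 164 FPKM in E3KO. The lowest E3KO library was above the highest control, which was ECtrl replicate 2. *Edn1* rose in E3KO against the mean of the controls, with a log2 fold change of 0.87 ± 0.18 (SE; limma, adjusted p = 0.0351; exact permutation p = 0.0119). The ratio of mean FPKM was 1.83. The values were 0.90 against ECtrl (limma, adjusted p = 0.0650) and 0.85 against EfCtrl (adjusted p = 0.0965). Without the library labelled E3KO replicate 1 the log2 fold change was 0.78 and the limma adjusted p 0.0818. The call was kept in 1 of the 9 fits that left out a library, the one without ECtrl replicate 2, and the log2 fold change stayed between 0.78 and 0.99 in these fits.

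*Ednrb*, which encodes the endothelin receptor that endothelial cells carry (chromosome 14, 103814625 to 103844173), was at 80.1, 65.2 and 82.8 FPKM in ECtrl and at 59.6, 73.4 and 50.8 FPKM in EfCtrl. In E3KO it was at 83.4, 124 and 143 FPKM. All E3KO libraries were above all controls, but the library labelled E3KO replicate 1 was above ECtrl replicate 3 by less than 1 FPKM. The log2 fold change against the mean of the controls was 0.74 ± 0.19 (SE; limma, adjusted p = 0.0689; exact permutation p = 0.0119), which did not pass the threshold. Without the library labelled E3KO replicate 1 it was 0.96 and passed (limma, adjusted p = 0.0332). With each library centred on its median it was 0.81 and passed (limma, adjusted p = 0.0476). The values against ECtrl (0.58) and EfCtrl (0.90) did not pass (limma, adjusted p = 0.200 and 0.0996). *Ednra*, the receptor of smooth muscle, was at or under 0.148 FPKM in every library.

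*Ece1*, which encodes endothelin-converting enzyme (chromosome 4, 137862237 to 137965229), was at 180, 219 and 234 FPKM in ECtrl, at 185, 148 and 194 FPKM in EfCtrl and at 112, 118 and 106 FPKM in E3KO. The E3KO libraries lay close together and all were below the lowest control, EfCtrl replicate 2. *Ece1* fell in E3KO against ECtrl, with a log2 fold change of -0.90 ± 0.15 (SE; limma, adjusted p = 0.0280), and against the mean of the controls, with -0.77 ± 0.13 (SE; limma, adjusted p = 0.0194; exact permutation p = 0.0119). The value against EfCtrl was -0.63 (limma, adjusted p = 0.0839). Without the library labelled E3KO replicate 1 the fall against the mean of the controls was still called (-0.77; limma, adjusted p = 0.0409). It was not called without EfCtrl replicate 1, EfCtrl replicate 3 or E3KO replicate 3, and the log2 fold change was between -0.82 and -0.73 over the 9 fits that left out a library. The call against ECtrl was kept without E3KO replicate 1 and without EfCtrl replicate 2 and lost in the other 7 such fits.

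The order of ligand and enzyme differed between the groups. The ratio of *Edn1* to *Ece1* FPKM was 0.420, 0.545 and 0.311 in ECtrl and 0.498, 0.537 and 0.510 in EfCtrl. In E3KO it was 1.66, 1.20 and 1.54. *Edn1* was thus below *Ece1* in 6 of 6 control libraries and above it in 3 of 3 E3KO libraries. Each of these genes separated the groups, in opposite directions, so separation by their ratio follows from that and is not a further result. *Edn1* was above *Ednrb* in the 3 E3KO libraries and in 4 of 6 controls, with ratios of 1.14 to 2.23 and of 0.877 to 1.95 that overlapped.

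**Figure D3:**
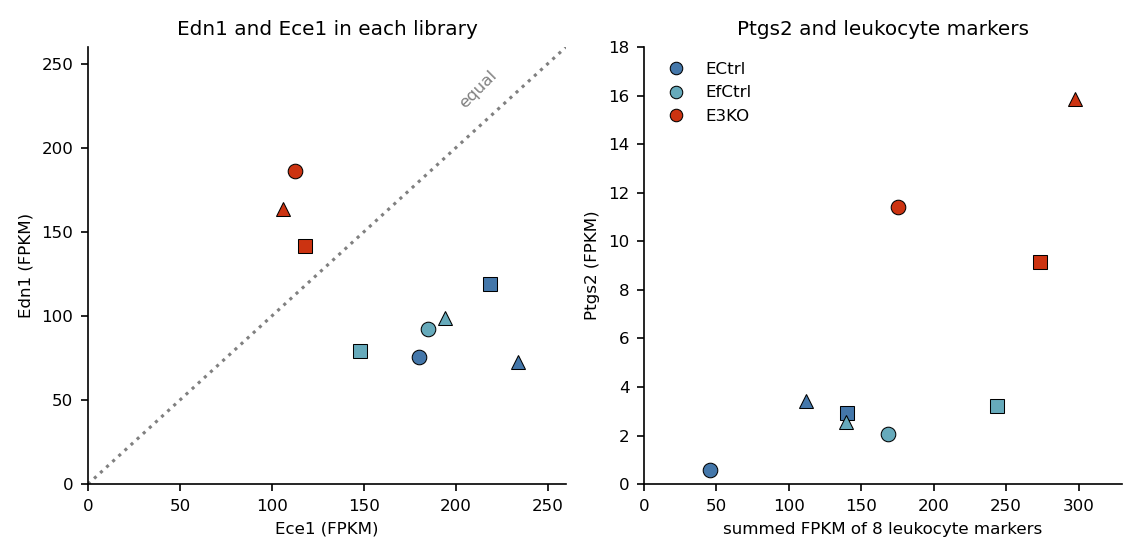
Left, FPKM of *Edn1* against FPKM of *Ece1* in each of the 9 libraries, with a dotted line at equal values. Right, FPKM of *Ptgs2* against the summed FPKM of 8 leukocyte marker genes. Colors give the groups and shapes the replicate numbers as in the plot of all members. The 3 E3KO libraries lie above the line of equal values at left and above 9 FPKM of *Ptgs2* at right, and all controls lie below the line and under 4 FPKM of *Ptgs2*.

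The promoter of *Ece1* is shown because this gene fell. RefSeq windows (GRCm38.p6) were found for 8 of the 10 members and were read for the 250 bases before each start site. The windows of *Edn1* and *Ednrb* lay in large part inside the loci of the deposited tables (206 and 250 of 250 bases) and are not shown. On both strands, TGANTCA (AP-1), TGACGTCA (CRE/ATF), CCNCNCCC (KLF), GATAA (GATA) and GGGNNTTCC (NF-kappaB) were searched, and letters that match are in capitals. Of 32841 windows of this length, 6.75% held the AP-1 letters, 1.55% the CRE/ATF letters, 45.9% the KLF letters, 22.6% the GATA letters and 4.98% the NF-kappaB letters. *Ece1* has 4 windows. The first, at chr4:137861987-137862236 on the plus strand, ends where the locus of the tables begins and held 1 KLF match, 176 to 169 bases before the start.
Ece1: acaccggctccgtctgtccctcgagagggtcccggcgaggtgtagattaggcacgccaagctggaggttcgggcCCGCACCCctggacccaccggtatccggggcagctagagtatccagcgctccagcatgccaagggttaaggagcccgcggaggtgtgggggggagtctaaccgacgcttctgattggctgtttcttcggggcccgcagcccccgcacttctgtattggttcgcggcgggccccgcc
The other 3 *Ece1* windows also held KLF letters, and none of the 4 held AP-1, CRE/ATF, GATA or NF-kappaB letters.

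Of the enzymes of prostanoid synthesis, the inducible cyclooxygenase was higher in E3KO, while the constitutive cyclooxygenase and prostacyclin synthase were not called. *Ptgs2*, the inducible cyclooxygenase (chromosome 1, 150100124 to 150108010), was at 0.583, 2.93 and 3.44 FPKM in ECtrl, at 2.05, 3.21 and 2.57 FPKM in EfCtrl and at 11.4, 9.16 and 15.9 FPKM in E3KO. All E3KO libraries were well above the highest control. *Ptgs2* rose against ECtrl, with a log2 fold change of 2.09 ± 0.38 (SE; limma, adjusted p = 0.0368), and against the mean of the controls, with 1.97 ± 0.33 (SE; limma, adjusted p = 0.0204; exact permutation p = 0.0119). The ratio of mean FPKM to that of the controls was 4.93. The value against EfCtrl was 1.85 (limma, adjusted p = 0.0678). Without the library labelled E3KO replicate 1 the rise against the mean of the controls was 1.99 and still called (limma, adjusted p = 0.0475). It was not called without EfCtrl replicate 1, EfCtrl replicate 3 or E3KO replicate 3, and the log2 fold change was between 1.73 and 2.14 over the 9 fits that left out a library. The call against ECtrl was kept in 1 of these 9 fits, the one without ECtrl replicate 3.

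Leukocyte markers, of which 8 were measured, moved with *Ptgs2* in part. Their summed FPKM was 45.5 to 140.5 in ECtrl, 139.6 to 244 in EfCtrl and 175 to 298 in E3KO, and 4 of 4 tested were higher in E3KO with 0 called in limma. ECtrl replicate 1 had both the lowest sum and the lowest *Ptgs2*. EfCtrl replicate 2 had a higher sum (244) than the library labelled E3KO replicate 1 (175), but a lower *Ptgs2* (3.21 against 11.4 FPKM). Most of the sum was *Lyz2* (28.0 to 191 FPKM in controls, 133 to 221 FPKM in E3KO) and *Cd68* (12.8 to 26.8 and 17.6 to 50.6 FPKM), and *Ptprc*, the common leukocyte antigen, was at or under 1.59 FPKM in every library. *Itgam* was at 0.156 to 1.30 FPKM in controls and at 1.66 to 1.98 FPKM in E3KO, above every control. The other leukocyte markers overlapped between E3KO and the controls, among them *Itgb2* (0.762 to 6.53 and 5.58 to 8.03 FPKM). The part of leukocytes in the *Ptgs2* level was not tested.

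The *Ptgs2* window, shown because this gene had the largest log2 fold change among the members, lay at chr1:150099781-150100030 on the plus strand, before the locus of the tables. It held none of the letters searched. The locus of the tables begins at 150100124, and the bases between the window and that locus were not searched.
Ptgs2: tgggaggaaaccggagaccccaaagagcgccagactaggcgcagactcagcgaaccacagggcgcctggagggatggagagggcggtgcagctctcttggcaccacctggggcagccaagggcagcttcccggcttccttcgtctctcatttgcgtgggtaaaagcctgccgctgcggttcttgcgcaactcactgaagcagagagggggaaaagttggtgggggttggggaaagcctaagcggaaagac

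*Ptgs1*, the constitutive cyclooxygenase (chromosome 2, 36230426 to 36252272), was at 0.736, 1.42 and 2.20 FPKM in ECtrl, at 1.13, 3.87 and 1.94 FPKM in EfCtrl and at 1.05, 2.56 and 4.17 FPKM in E3KO. The groups overlapped, with E3KO replicate 3 above the highest control, and the log2 fold change against the mean of the controls was 0.30 (95% confidence interval -0.52 to 1.12; limma, adjusted p = 0.634). *Ptgs2* was 0.792 to 2.06 times *Ptgs1* in the controls and 3.58 to 10.9 times in E3KO, without overlap. *Ptgis*, prostacyclin synthase (chromosome 2, 167103378 to 167240604), was at 0.240, 0.814 and 1.19 FPKM in ECtrl, at 0.409, 2.45 and 1.61 FPKM in EfCtrl and at 0.566, 0.394 and 1.01 FPKM in E3KO. It did not reach the minimum for limma, its E3KO libraries lay inside the control range, and the exact permutation p was 0.452. The highest *Ptgis* values, in EfCtrl replicates 2 and 3, were in the libraries with the highest summed smooth muscle markers (45.4 and 59.1 FPKM, against 7.96 to 35.6 in the others) and fibroblast markers (26.1 and 28.0 FPKM, against 4.67 to 16.4). In these libraries *Acta2* was at 28.1 and 35.1 FPKM and *Tagln* at 13.9 and 18.8 FPKM, their highest values, and *Myh11* was at or under 0.325 FPKM in every library. The fibroblast marker *Col1a1* was also highest there, at 5.57 and 6.67 FPKM. It ranged from 0.591 to 6.67 FPKM in all controls and from 0.0131 to 0.583 FPKM in E3KO. The part of these cells in the *Ptgis* level was not tested.

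In the nitric oxide system the synthase itself was not called in any comparison. *Nos3*, endothelial nitric oxide synthase (chromosome 5, 24364810 to 24392143), was at 1.90, 2.00 and 3.73 FPKM in ECtrl, at 3.88, 3.48 and 2.75 FPKM in EfCtrl and at 3.27, 2.76 and 3.16 FPKM in E3KO. The E3KO libraries lay inside the range of the controls. The log2 fold change against the mean of the controls was 0.07, with a 95% confidence interval from -0.33 to 0.46 (limma, adjusted p = 0.835; exact permutation p = 0.762). It was 0.23 against ECtrl and -0.10 against EfCtrl (limma, adjusted p = 0.535 and 0.820).

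*Gch1*, GTP cyclohydrolase, which begins the synthesis of tetrahydrobiopterin (chromosome 14, 47153895 to 47189413), was at 1.43, 1.87 and 2.59 FPKM in ECtrl, at 1.72, 2.37 and 1.77 FPKM in EfCtrl and at 2.78, 2.68 and 3.16 FPKM in E3KO. Every E3KO library was above every control, by a narrow margin over ECtrl replicate 3. The log2 fold change against the mean of the controls was 0.40 ± 0.14 (SE) and was not called (limma, adjusted p = 0.140; exact permutation p = 0.0357), and the values against ECtrl and EfCtrl were 0.40 each (limma, adjusted p = 0.217 and 0.253). Its window, at chr14:47189414-47189663 on the minus strand, held 2 KLF matches and none of the other motifs.
Gch1: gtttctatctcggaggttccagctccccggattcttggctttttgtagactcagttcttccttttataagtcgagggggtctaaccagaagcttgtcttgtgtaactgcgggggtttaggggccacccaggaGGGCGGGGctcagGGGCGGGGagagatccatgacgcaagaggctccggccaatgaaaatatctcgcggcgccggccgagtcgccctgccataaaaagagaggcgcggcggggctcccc

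*Ddah2*, which degrades asymmetric dimethylarginine, an inhibitor of nitric oxide synthase (chromosome 17, 35059035 to 35062095), was at 4.38, 3.22 and 2.48 FPKM in ECtrl, at 5.96, 4.52 and 4.78 FPKM in EfCtrl and at 2.40, 2.77 and 1.77 FPKM in E3KO. All E3KO libraries were below all EfCtrl libraries, as they were for 19.8% of all genes tested, but they overlapped with ECtrl. All EfCtrl libraries were also above all ECtrl libraries, as for 3.48% of genes. The log2 fold change was -0.88 ± 0.19 (SE) against EfCtrl (limma, adjusted p = 0.0721) and -0.38 against ECtrl (limma, adjusted p = 0.302), and neither was called. Without ECtrl replicate 1 the difference from EfCtrl passed the threshold (limma, adjusted p = 0.0476). Against the mean of the controls the value was -0.63 (limma, adjusted p = 0.0705; exact permutation p = 0.0595). Between the controls EfCtrl was higher by 0.50 (limma, unadjusted p = 0.0303, adjusted p = 1).

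*Ace*, angiotensin-converting enzyme, which makes angiotensin II and degrades bradykinin (chromosome 11, 105965608 to 105989964), was at 2.39, 4.30 and 3.12 FPKM in ECtrl, at 3.54, 5.78 and 3.94 FPKM in EfCtrl and at 5.36, 3.35 and 3.58 FPKM in E3KO. The groups overlapped. The log2 fold change against the mean of the controls was 0.09, with a 95% confidence interval from -0.37 to 0.54 (limma, adjusted p = 0.814; exact permutation p = 0.738).

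GENCODE M21 places other genes over part of the loci of *Nos3*, *Edn1*, *Ece1*, *Ptgs1*, *Ptgis*, *Ace* and *Gch1*, among them *Atg9b* at *Nos3*. Whether the quantification used strand is not given in the sources used here, so reads from these genes and from the members cannot be told apart where they overlap.

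The other genes of the same pathways were read from lists that hold 87 measured genes besides the members, of which 41 reached the minimum. Against the mean of the controls 5 of the 41 were called higher and 2 lower, beside 1.54% and 3.26% of all genes tested, and their median log2 fold change was -0.05, beside -0.08 over all genes tested. The 5 include *Slco2a1*, which reached the minimum through the E3KO group alone. The lists were chosen with earlier results of these data known, so these counts describe the lists and do not test them. In the nitric oxide list, *Ass1*, which regenerates arginine from citrulline, rose from 12.4 ± 2.51 FPKM (SD, n = 6) in the controls to 29.8 ± 2.96 (SD, n = 3) in E3KO (log2 fold change 1.21; limma, adjusted p = 0.0128). *Slc7a1*, the arginine transporter, fell from 10.1 ± 0.502 to 5.76 ± 0.735 FPKM (log2 fold change -0.72; limma, adjusted p = 0.0120). *Cav1*, caveolin-1, the caveolar protein that binds and restrains nitric oxide synthase, was the most abundant gene of the list. It fell from 671 ± 36.1 to 415 ± 5.93 FPKM (log2 fold change -0.69; limma, adjusted p = 0.0109). These 3 genes were called in all 3 comparisons of E3KO, and they were 3 of the 17 tested in the list, which counts *Nos3*, *Gch1* and *Ddah2*. Against the mean of the controls 4.8% of all genes tested were called. Without the library labelled E3KO replicate 1 all 3 were still called against the mean of the controls, but against EfCtrl none was (limma, adjusted p = 0.0635 for *Ass1*, 0.0573 for *Cav1* and 0.0576 for *Slc7a1*), and *Ass1* was not called against ECtrl (adjusted p = 0.0561). With the replicate number as a block the 3 genes were called against the mean of the controls only.

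In the prostanoid list 3 of 10 tested genes were called higher against the mean of the controls and 0 lower in limma, beside 1.54% and 3.26% of all genes tested. Besides *Ptgs2* these were *Slco2a1*, the prostaglandin transporter, and *Pla2g4a*, the phospholipase that frees arachidonic acid. *Slco2a1* did not exceed 1.33 FPKM in any control and was at 4.89, 4.89 and 8.38 FPKM in E3KO (log2 fold change 1.88; limma, adjusted p = 0.0110), and it reached the minimum through the E3KO group alone. It was called in all 3 comparisons of E3KO, but not against EfCtrl without the library labelled E3KO replicate 1 (limma, adjusted p = 0.0573), nor against ECtrl or EfCtrl with the replicate number as a block (adjusted p = 0.0532 and 0.0764). Against the mean of the controls *Slco2a1*, *Ass1*, *Cav1* and *Slc7a1* each lost the call in 1 of the 9 fits that left out a library, the one without E3KO replicate 3. *Pla2g4a* ranged from 1.25 to 3.75 FPKM in control libraries and was at 5.34, 4.66 and 6.19 FPKM in E3KO (log2 fold change 0.94; limma, adjusted p = 0.0455), and its call was kept in 1 of the 9 fits that left out a library, the one without EfCtrl replicate 2. The most abundant gene of this list, *Akr1b3*, was at 41.0 ± 15.3 FPKM (SD, n = 6) in the controls and was not called (0.15; limma, adjusted p = 0.739).

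In the endothelin list 5 of 9 genes were tested and *Edn1* and *Ece1* were the only ones called against the mean of the controls, beside 4.8% of all genes tested. The list of the renin-angiotensin and kinin system had 5 tested genes and 0 calls in limma at the adjusted threshold, and its most abundant gene was *Atp6ap2* (104 ± 2.01 FPKM, SD, n = 6). *Prcp*, a carboxypeptidase of this list that degrades angiotensin II, was not called (0.51; limma, adjusted p = 0.0731). It was above all controls in every E3KO library (111 to 137 against 66.2 to 95.8 FPKM), as were 5.18% of all genes tested. Of the other vasomotor genes 13 were tested and 2 were called higher (beside 1.54% of all genes tested). These were *Npr1*, a receptor of natriuretic peptides (36.4 ± 4.70 to 64.6 ± 9.51 FPKM; 0.81; limma, adjusted p = 0.0240), and *Hmox1*, heme oxygenase, which makes carbon monoxide (273 ± 51.3 to 483 ± 81.1 FPKM; 0.82; limma, adjusted p = 0.0466). The *Npr1* call was lost without EfCtrl replicate 1, EfCtrl replicate 3, E3KO replicate 2 or E3KO replicate 3, with limma adjusted p of up to 0.101, and the *Hmox1* call was kept only without ECtrl replicate 3 and without the library labelled E3KO replicate 1. The transcription factors of laminar flow *Klf2* (control range 16.5 to 37.6 FPKM, E3KO range 5.48 to 14.0) and *Klf4* (39.2 to 69.1 and 25.9 to 38.7 FPKM) were not called (limma, adjusted p = 0.115 and 0.199). Both were below all controls in every E3KO library, as were 11.5% of all genes tested. The most abundant gene of this list, *S1pr1*, was at 364 ± 17.4 FPKM in the controls and was not called (-0.07; limma, adjusted p = 0.623).

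**Figure D4:**
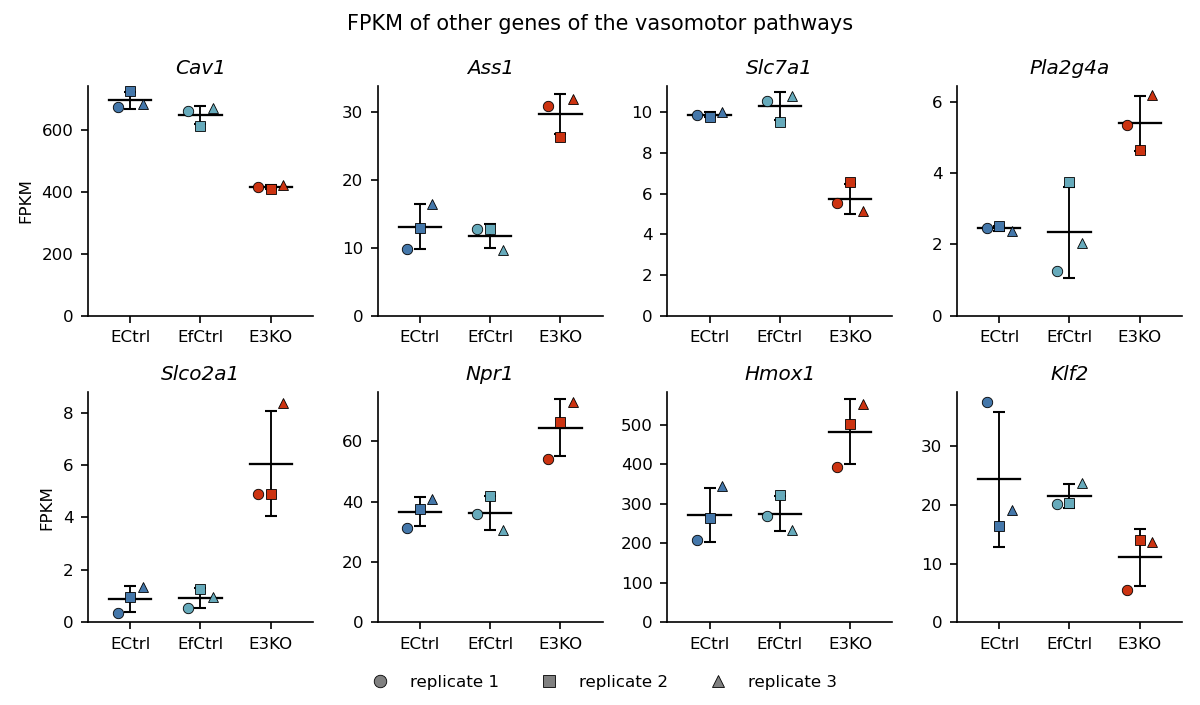
FPKM (linear axes from 0, a separate scale for each gene) of 8 further genes of the vasomotor pathways in the ECtrl, EfCtrl and E3KO libraries, with the group mean and SD (n = 3). The genes shown were picked from list genes that were called or lay outside the range of the controls, so their position outside it is no result. The E3KO libraries are below that range for *Cav1*, *Slc7a1* and *Klf2* and above it for *Ass1*, *Pla2g4a*, *Slco2a1*, *Npr1* and *Hmox1*. Of the 41 list genes tested, 6 had all E3KO libraries above all controls and 4 had them below. The shares of all genes tested were 5.18% and 11.5%.

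The genes with the profiles most like those of the members were found over the 9 libraries by the root mean square distance between log2(FPKM + 1) profiles, each centred on its mean. The profile of *Edn1* was closest to that of *Ctgf* (distance 0.11), followed by *Mmd* (0.17) and *Klhl6* (0.17). *Ctgf* ranged from 119 to 195 FPKM in control libraries and from 236 to 316 FPKM in E3KO. *Ednrb* was closest to *Sepp1*, *Hist1h2ac* and *Rragd* (0.19 to 0.20), and *Gch1* to *Upp1*, *Taldo1* and *Prdx6* (0.06 to 0.08). *Ece1* was closest to *Rnf125* (0.13), *Cav1* (0.14) and *Antxr1* (0.15), so a further gene of the vasomotor lists was among its nearest profiles. *Ptgs2* was closest to its pathway neighbor *Slco2a1* (0.23), *Perp* (0.23) and *Gm15681* (0.25). *Perp* ranged from 1.89 to 6.54 FPKM in control libraries and from 17.6 to 27.1 FPKM in E3KO. These distances are descriptions of 9 profiles that share their libraries, and no test was made of them.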

How the data were processed

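The authors aligned RNA-seq reads with TopHat and Bowtie and quantified genes with Cufflinks 1.0.3 and Cuffdiff on mm10, per the submitters' processing notes. The deposited tables hold an FPKM value per gene and library, and the authors' own comparison columns (fold changes, p and q values), which were not used. Sequencing depth cannot be read from FPKM, and the handling of strand is not given in the sources used here. Of 37104 loci, the 33353 symbols that name a single locus were kept. Groups followed the labels. E3KO was compared with ECtrl, with EfCtrl and with the mean of both by limma 3.58.1 (R 4.3.3) on log2(FPKM + 1), with all 9 libraries in a single fit and no covariate. The method was tested on simulated data. The simulation had independent noise and set changes only in more abundant genes, so it does not cover the weakly expressed members or a library that stands apart. Members were compared singly by exact permutation (scipy 1.17.1). By rule, the text names all members, the JNK genes, list genes that were called or, if tested, did not overlap with the controls, the most abundant gene of each list, and the 3 nearest profiles. *Ednra* was added after its values were seen, and the cell type markers were named outside this rule. Members and lists were chosen with earlier results of these data known. Alternatives were another pseudocount (0.1), no filter, median centring, a mean-variance trend, the replicate number as a block, fits of the compared groups alone, and each library left out.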

Additional observations from a re-analysis of the deposited data

How the results depend on the processing

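The direction of *Ptgs2*, *Edn1*, *Ece1*, *Ednrb*, *Gch1* and *Ddah2* in E3KO was the same under every alternative run, but calls depended on single libraries. Against the mean of the controls 3 members were called, and 4 with median centring, 2 with no filter, 3 with the mean-variance trend and 0 to 3 with a library left out (0 without EfCtrl replicate 1, EfCtrl replicate 3 or E3KO replicate 3). Against ECtrl 2 were called, and 3 with the mean-variance trend (*Edn1* added), 2 with median centring, 1 with a pseudocount of 0.1, 1 with no filter, 0 with only the compared groups fitted and 0 to 1 with a library left out. Against EfCtrl 0 were called, and 0 to 2 with a library left out (*Ptgs2* and *Ddah2* without ECtrl replicate 1). Over all genes, 239 calls against ECtrl became 95 with no filter, 0 with only the compared groups and 0 to 173 with a library left out (0 without E3KO replicate 3, 3 without EfCtrl replicate 3, 15 without ECtrl replicate 1). The 101 calls against EfCtrl became 17 with no filter, 27 with only the compared groups and 1 to 223 with a library left out (223 without ECtrl replicate 1, 1 without E3KO replicate 3). The 509 against the mean of the controls became 351 with no filter and 718 with only the compared groups, where all controls were fitted as a single group. With a library left out they became 9 to 412 (9 without E3KO replicate 3, 104 without EfCtrl replicate 3), and between controls 0 became 0 to 4. Of the 509, 163 were higher and 346 lower, and with median centring 209 were higher and 268 lower of 477. The number of members with an exact permutation p under 0.05 was 5, and 3 to 6 with a library left out (3 without E3KO replicate 3). These 5 were the members whose E3KO libraries did not overlap with the controls. Such a lack of overlap was seen for 5.18% (above) and 11.5% (below) of all genes tested, and the permutation test was not run over all genes. The cause of the changes between these settings was not tested.

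Replicate numbers are shared by the groups, but same-numbered libraries did not deviate together (r from -0.040 to 0.12), so they were not treated as pairs. With the replicate block, 0 members were called against ECtrl, 0 against EfCtrl and 1 (*Ptgs2*, limma adjusted p = 0.0354) against the mean of the controls, and the genes called were 1, 1 and 202.

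Signs turned only where no call was made, and only with a library left out. The log2 fold change of *Ptgs1* against EfCtrl ranged from -0.21 (without E3KO replicate 3; -0.17 without EfCtrl replicate 1) to 0.46, and against the mean of the controls from -0.014 (without E3KO replicate 3) to 0.65, in limma and in the permutation test. That of *Ace* against EfCtrl ranged from -0.26 to 0.086 (without EfCtrl replicate 2; 0.017 without E3KO replicate 2). Against the controls it ranged from -0.084 (without E3KO replicate 1) to 0.19 in limma, and the same in the permutation test, where it was also -0.010 without ECtrl replicate 1. *Nos3* ranged from -0.017 (without ECtrl replicate 1; -0.0071 without ECtrl replicate 2) to 0.13 in the permutation test. A minimum of 2 FPKM over all 9 libraries, chosen after seeing the data, left 3 members called against the mean of the controls.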
